A study of Homo sapiens with 42 samples.

Results

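The genes described here are ATF4 and 9 genes that respond to amino acid and endoplasmic reticulum stress, measured by short-read RNA-seq in K562 cells, a human chronic myeloid leukaemia line driven by the BCR-ABL1 kinase. They are DDIT3, TRIB3, CHAC1, ASNS, PSAT1, PHGDH, SESN2, SLC7A11 and DDIT4. They were chosen by name, not by their values, and were found by Ensembl identifier as 10 of the 58243 genes in each of the 2 deposited count tables. All 10 passed the filter on low counts in both tables.

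The 42 libraries formed 14 groups of 3 biological replicates. Poly(A) mRNA (27 libraries) came from untreated cells (CTRL), from cells given 1 µM imatinib (IM), an inhibitor of the BCR-ABL1 kinase, for 1, 6 or 18 hours, from cells given 5 µM JTE-607 (JTE), an inhibitor of the 3′ end cleavage enzyme CPSF73, for 1, 6 or 18 hours, and from cells given 110 mM KCl, a hyperosmotic shock, for 1 or 3 hours. Nuclear RNA depleted of rRNA (15 libraries) came from CTRL, IM 1h, IM 18h, JTE 1h and KCl 1h. All groups were the same unmodified line seeded the day before treatment, no vehicle-only group is labelled, and the 9 mRNA or 5 nuclear groups share 1 set of CTRL libraries each. The sources name different media for these cells (RPMI1640 and Iscove's), and media differ in their amino acids. Which one was used could not be told from the sources used here.

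Assigned read pairs numbered 16439848 to 22505595 per mRNA library, except 62953314 and 42474454 in KCl 1h replicates 2 and 3, and 16175394 to 25103205 per nuclear library. All 7 erythroleukaemia markers checked (HBG1, HBG2, HBE1, HBZ, GATA1, KLF1 and TFRC) averaged at least 1 CPM (read pairs per 1e6 assigned pairs), with a summed level of 2952 to 15649 CPM in mRNA and 4238 to 15273 CPM in nuclear RNA. The summed level of markers of T cells, B cells, monocytes, epithelium and fibroblasts was 91.8 to 131 CPM in mRNA and 68.2 to 113 CPM in nuclear RNA. Of these 10 markers, 5 averaged at least 1 CPM in each fraction.

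ATF4 is the effector of the integrated stress response. The kinases GCN2, PERK, HRI and PKR phosphorylate the translation factor eIF2α when amino acids run short, unfolded proteins gather in the endoplasmic reticulum, heme is lacking or double-stranded RNA appears, and the ATF4 message is then translated in spite of the general brake on protein synthesis. ATF4 binds C/EBP-ATF response elements (CARE) with a partner bZIP protein and raises genes of amino acid synthesis, amino acid import and redox balance, along with genes that limit mTORC1 or promote cell death. Since ATF4 is controlled largely at translation, its RNA level is not a measure of its protein.

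The positions of the 10 genes are given in hg38. ATF4 (ENSG00000128272) is at chr22:39519695-39522685 on the plus strand. The other bZIP gene, DDIT3 (ENSG00000175197), is at chr12:57516588-57520517 on the minus strand and lies across part of MARS1 on the other strand. TRIB3 (ENSG00000101255) is at chr20:362835-397559, CHAC1 (ENSG00000128965) at chr15:40952962-40956519, and ASNS (ENSG00000070669) at chr7:97852118-97872542. PSAT1 (ENSG00000135069) is at chr9:78297143-78330093 and PHGDH (ENSG00000092621) at chr1:119648411-119744226. SESN2 (ENSG00000130766) is at chr1:28259527-28282491, SLC7A11 (ENSG00000151012) at chr4:138164097-138242349 with its antisense gene on the other strand, and DDIT4 (ENSG00000168209) at chr10:72273920-72276036. Counts were assigned to exons of these genes. Reads of ATF4 can also match its processed pseudogene ATF4P3, and those of DDIT3 and SLC7A11 can fall in the overlapping genes, so these 3 counts carry that uncertainty.

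What the members share in their promoters was read from RefSeq windows of 300 bases (GRCh38.p14), 250 before and 50 after each start, which cover 9 of the 10 genes. The CARE core TGATGNAA was searched on both strands and is found in 3.62% of all 35116 windows, or in 4.46% of 27305 genes with a window, and in 2 of the 9 members. The full cAMP response element TGACGTCA, which reads the same on both strands, is found in 1.85% of windows, or 2.25% of genes, and in 0 of 9 members. The 2 windows with a CARE core are shown because ASNS and CHAC1 are both established ATF4 targets. Capitals mark the match, and a match is a description of the letters, not a binding site.
ASNS: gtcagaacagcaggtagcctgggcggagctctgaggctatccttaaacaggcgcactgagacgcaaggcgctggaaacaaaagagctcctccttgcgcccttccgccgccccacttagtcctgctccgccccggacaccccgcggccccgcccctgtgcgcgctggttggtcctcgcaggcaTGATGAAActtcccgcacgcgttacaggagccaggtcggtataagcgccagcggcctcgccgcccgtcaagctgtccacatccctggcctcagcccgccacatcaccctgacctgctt
CHAC1: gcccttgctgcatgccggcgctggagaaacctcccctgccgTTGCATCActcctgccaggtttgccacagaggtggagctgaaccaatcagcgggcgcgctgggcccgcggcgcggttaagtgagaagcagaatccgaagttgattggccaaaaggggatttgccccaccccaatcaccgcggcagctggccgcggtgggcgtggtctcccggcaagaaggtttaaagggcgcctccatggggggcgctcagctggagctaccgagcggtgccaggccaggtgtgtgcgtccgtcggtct
The ASNS window is chr7:97872359-97872658, minus strand, and its match TGATGAAA begins 68 bases before the start. The CHAC1 window is chr15:40953221-40953520, plus strand, and its match, printed as TTGCATCA because the core is on the other strand, begins 209 bases before the start. Among listed pathway genes with a window, the core was found for 5 of 9 amino acid transport genes, 3 of 5 bZIP partners, 1 of 7 amino acid synthesis genes, 1 of 8 regulators of eIF2α, 1 of 12 other reported ATF4 targets and 1 of 13 genes of the other unfolded protein response branches.

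**Figure D1:**
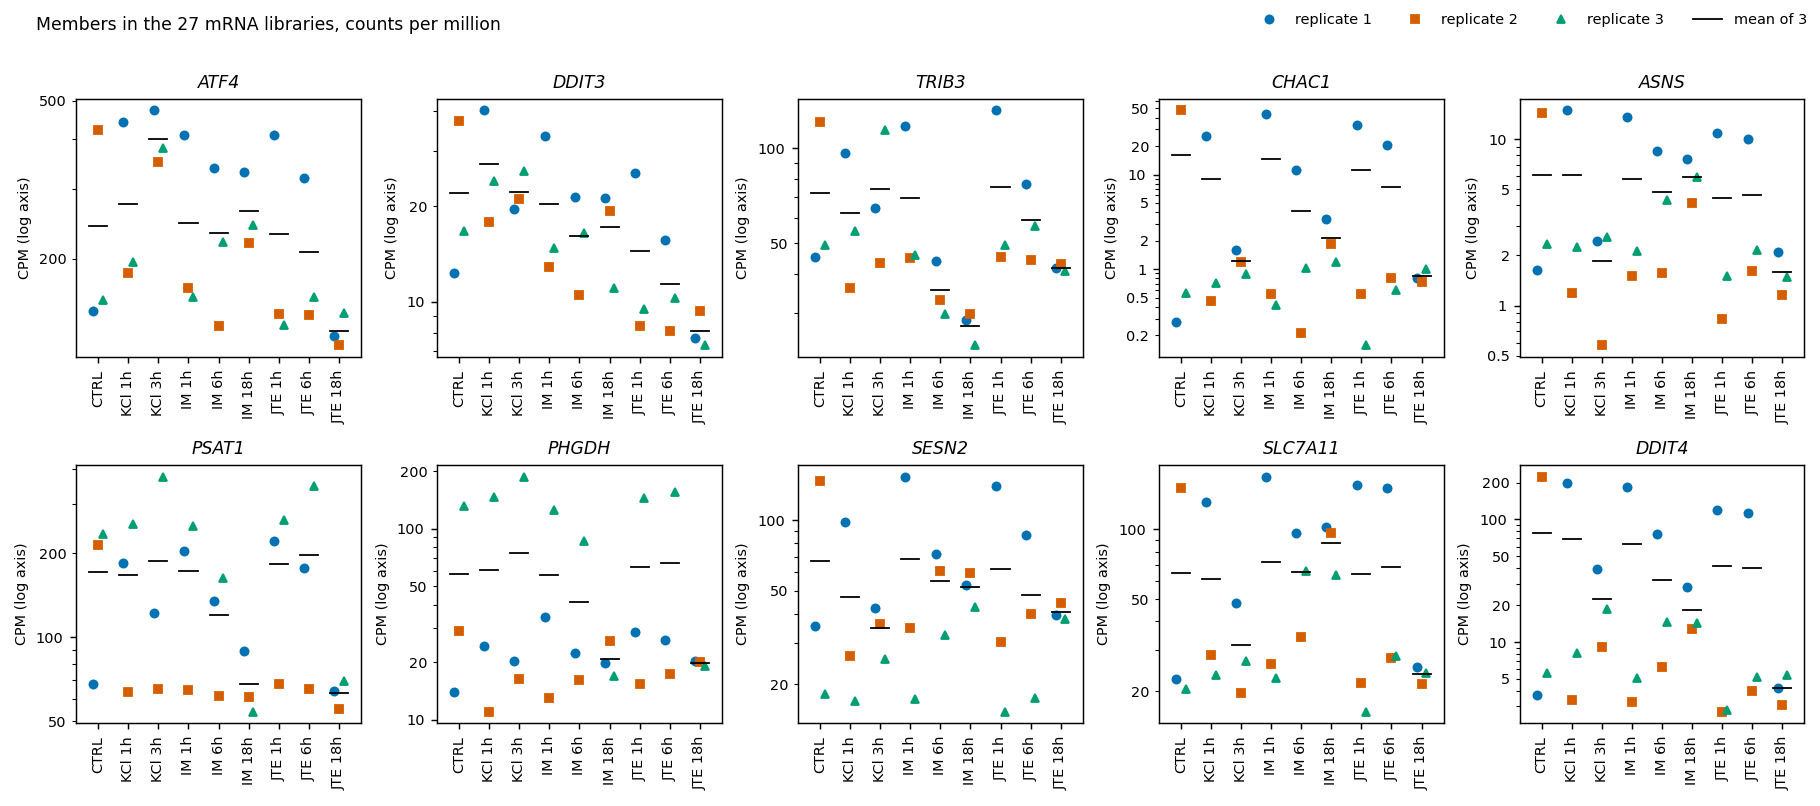
CPM of each of the 10 genes in every mRNA library, by group, on a log axis, 1 point per library numbered by replicate. In CTRL the highest CHAC1, DDIT4, SLC7A11, ASNS and SESN2 points belong to replicate 2, and in IM 1h, JTE 1h and KCl 1h to replicate 1.

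The widest differences among these genes in mRNA were between replicates of 1 group, not between groups. CHAC1, a γ-glutamyl cyclotransferase that breaks down glutathione, stood at 0.273, 47.6 and 0.56 CPM in CTRL replicates 1, 2 and 3, that is 5, 905 and 10 read pairs. DDIT4 (REDD1), which inhibits mTORC1, stood at 3.71, 223 and 5.60 CPM in the same libraries. In both genes CTRL replicate 2 was far above the other 2 libraries, by 84.9-fold and 39.9-fold over the middle one.

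The same library led most of the other members. SLC7A11, the cystine importer xCT, was at 22.5, 151 and 20.5 CPM in CTRL. ASNS, which makes asparagine, was at 1.64, 14.3 and 2.35 CPM, and SESN2, a leucine sensor that restrains mTORC1, at 35.3, 147 and 18.1 CPM. ATF4 itself was at 148, 422 and 158 CPM. Replicate 2 was again the highest, between 2.67-fold (ATF4) and 6.72-fold (SLC7A11) above the middle library.

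Among the remaining 4, DDIT3 (CHOP), a bZIP factor linked to stress-induced death, was at 12.4, 37.3 and 16.7 CPM in CTRL. TRIB3, a pseudokinase that is induced by ATF4 and dampens it, was at 45.2, 121 and 49.2 CPM. Replicate 2 led both. The serine synthesis enzymes differed: PHGDH, the first step of that pathway, was at 14, 29.0 and 131 CPM, with replicate 3 the highest, and PSAT1, the next step, at 68.1, 214 and 234 CPM, with replicate 1 the lowest.

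Counted over all genes tested, CTRL replicate 2 led its group by at least 1.5-fold in 3.90% of 18095 genes, and in 8 of the 10 members. Replicate 1 led in the same way for 8 of 10 members in IM 1h (5.62% of all genes), 8 of 10 in JTE 1h (5.19%) and 8 of 10 in KCl 1h (3.22%). It led 7 of 10 in JTE 6h (4.0%), 4 in IM 6h (2.55%), 2 in IM 18h (2.44%) and none in JTE 18h. In KCl 3h it led 2 of 10 (2.48%) and replicate 3 led 3 of 10 (8.76%). In IM 1h, for example, CHAC1 was at 43.3, 0.552 and 0.416 CPM and DDIT4 at 182, 3.26 and 5.13 CPM. By the labels, the replicate that led most members was thus number 2 in CTRL and number 1 in IM 1h, JTE 1h, KCl 1h and JTE 6h. Over 8735 genes outside the lists, deviations from the group mean of each replicate 1 of a treated group correlated with those of CTRL replicate 2 (r from 0.117 to 0.851), and those of each treated replicate 2 with CTRL replicate 1 (0.252 to 0.826). Treated replicates 3 correlated with CTRL replicate 3 (0.0559 to 0.871). The labels were kept, under which CTRL replicates 1 and 2 hold 18333127 and 19031221 assigned read pairs. The paper's mapping statistics give these 2 totals to mRNA CTRL in the opposite order. There the treated mRNA libraries have the same totals under the same numbers as here. By the paper's numbering, the CTRL library that led most members is number 1, as in IM 1h, JTE 1h, KCl 1h and JTE 6h. The sources thus disagree on which CTRL library is number 1 and which is number 2.

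The spread over replicates followed the same order. The median SD of the 10 genes on the log2 scale was 1.58 in CTRL, 1.61 in IM 1h, 1.65 in JTE 1h and 1.34 in KCl 1h, where the median of all genes was 0.219 to 0.239. At 18 hours it was 0.376 in IM (all genes 0.177) and 0.153 in JTE (all genes 0.156). Fitted over all 27 mRNA libraries, the biological coefficient of variation was 1.5 for CHAC1 and 1.35 for DDIT4, the highest and second highest of 18095 genes, against a median of 0.159. It was 0.929 for PHGDH, 0.868 for ASNS, 0.785 for SLC7A11, 0.711 for SESN2 and 0.574 for PSAT1, and 0.414, 0.385 and 0.373 for ATF4, TRIB3 and DDIT3. What set these libraries apart was not tested.

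Genes of the same pathway shared the pattern in part. Of the bZIP partners, 4 of 7 tested were led by CTRL replicate 2 by at least 1.5-fold, as were 4 of 9 amino acid transporters and 5 of 12 other reported ATF4 targets. The share was 1 of 12 for amino acid synthesis enzymes, 2 of 13 for genes of the other unfolded protein response branches and 0 of 9 for eIF2α and its listed regulators. A few were picked after their values were seen. ATF3, a bZIP gene raised by ATF4, was at 5.02, 47.9 and 5.83 CPM in CTRL. HERPUD1, which acts in degradation from the endoplasmic reticulum, was at 14.1, 72.4 and 12.5 CPM. HSPA5 (BiP), the main chaperone of that compartment and a target of ATF6, was at 564, 584 and 567 CPM, so CTRL replicate 2 was level with the others there.

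**Figure D2:**
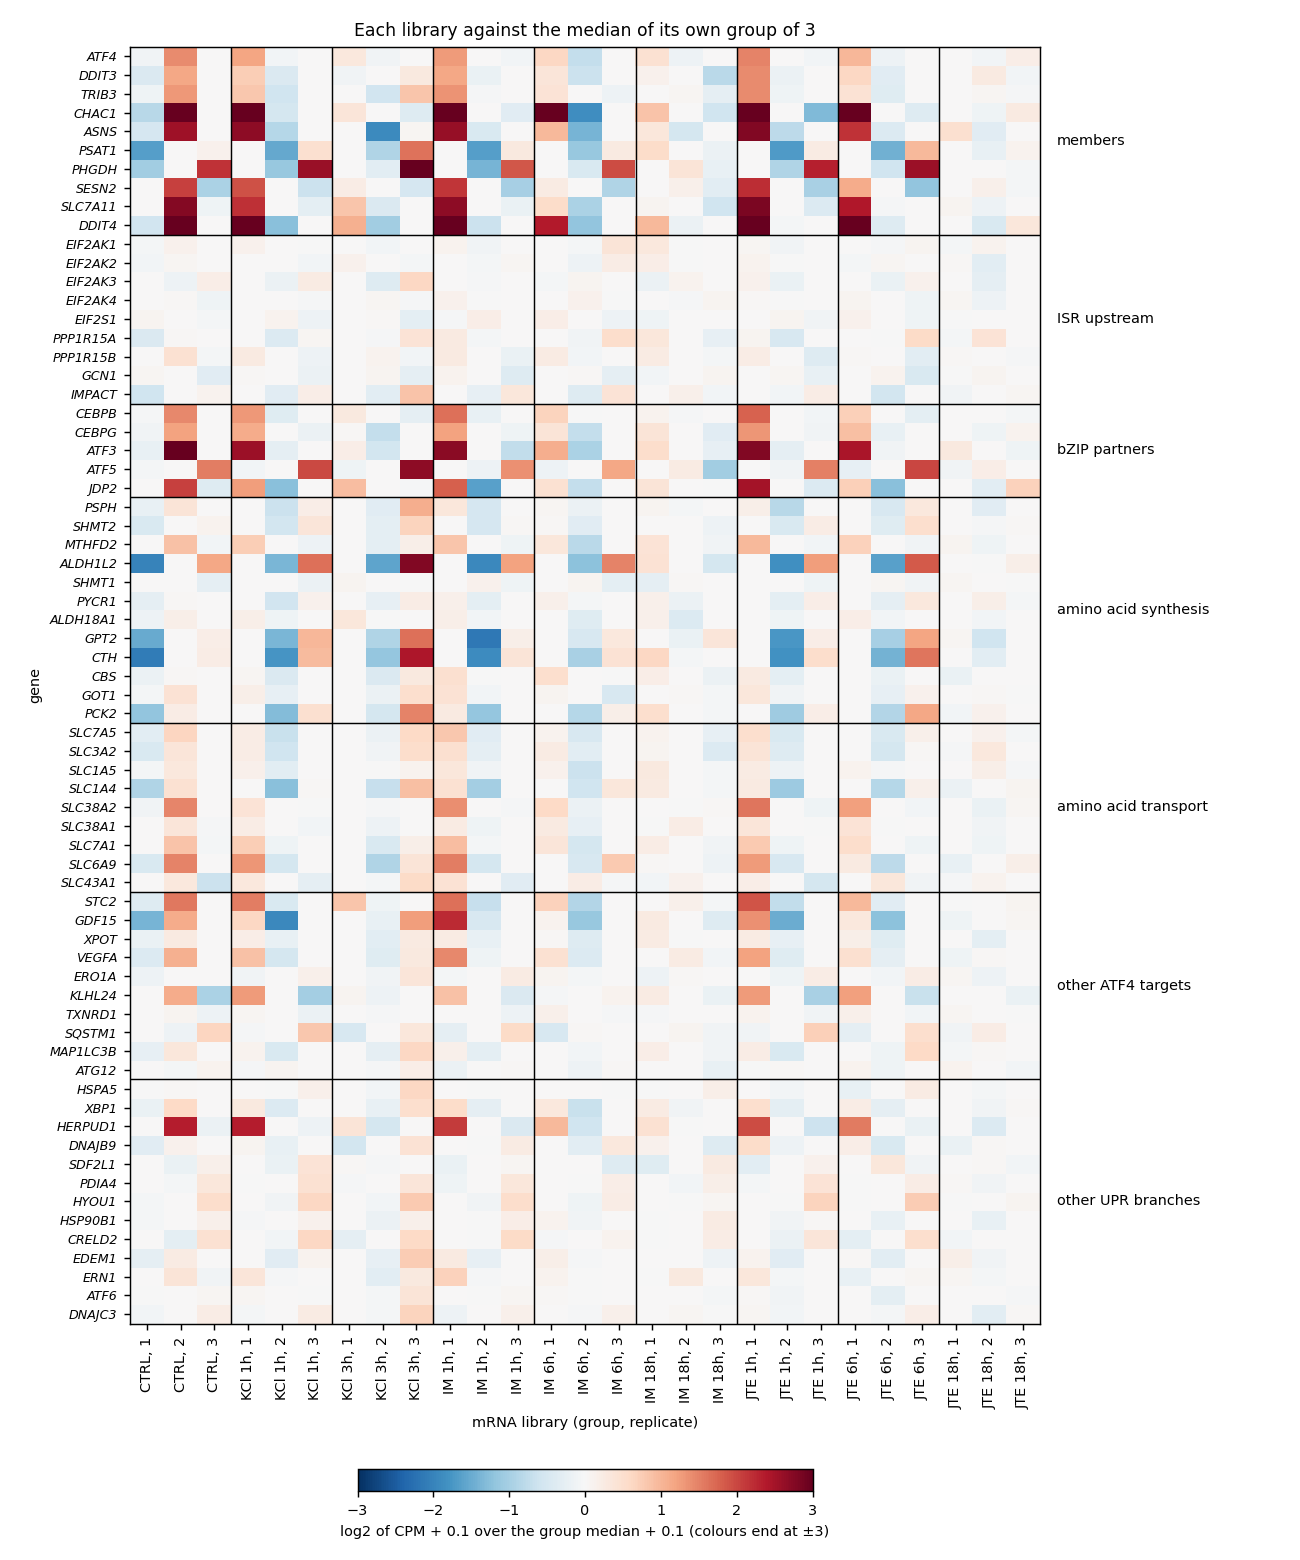
Level of the members and of the listed pathway genes in each mRNA library against the median of the 3 libraries of its group (log2 of CPM + 0.1), genes by list down the plot and libraries by group across it. CTRL replicate 2 and replicate 1 of the 1 h groups are the highest for the members other than PSAT1 and PHGDH, and HSPA5 stays level over the CTRL libraries.

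Nuclear RNA held a similar pattern with other library numbers. In nuclear CTRL the 3 libraries were closer than in mRNA CTRL, with CHAC1 at 7.88, 10.2 and 4.39 CPM and DDIT4 at 64.2, 63.1 and 27.2 CPM. The highest library was 2.32-fold (CHAC1) and 2.36-fold (DDIT4) above the lowest, which was replicate 3 in both. In nuclear IM 1h CHAC1 was at 3.08, 33.3 and 2.72 CPM and DDIT4 at 21.4, 141 and 15.2 CPM, with replicate 2 above the others. Replicate 2 was the highest library for 10 of 10 members in IM 1h, JTE 1h and KCl 1h, and led by at least 1.5-fold for 8 of 10 in IM 1h (5.09% of all genes), 7 in JTE 1h (1.64%) and 7 in KCl 1h (1.85%).

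The nuclear spread was small in CTRL and IM 18h. The median SD of the members was 0.217 in CTRL and 0.106 in IM 18h on the log2 scale, near the 0.192 and 0.221 of all genes, and 0.836, 0.647 and 0.781 in IM 1h, JTE 1h and KCl 1h. CHAC1 (0.959) and DDIT4 (0.838) again had the highest and second highest biological coefficients of variation, of 21929 genes, with a median of 0.137. ASNS ranked 51, SESN2 60 and SLC7A11 93, and the values of TRIB3 (0.217), ATF4 (0.201) and DDIT3 (0.149) were closer to the median.

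**Figure D3:**
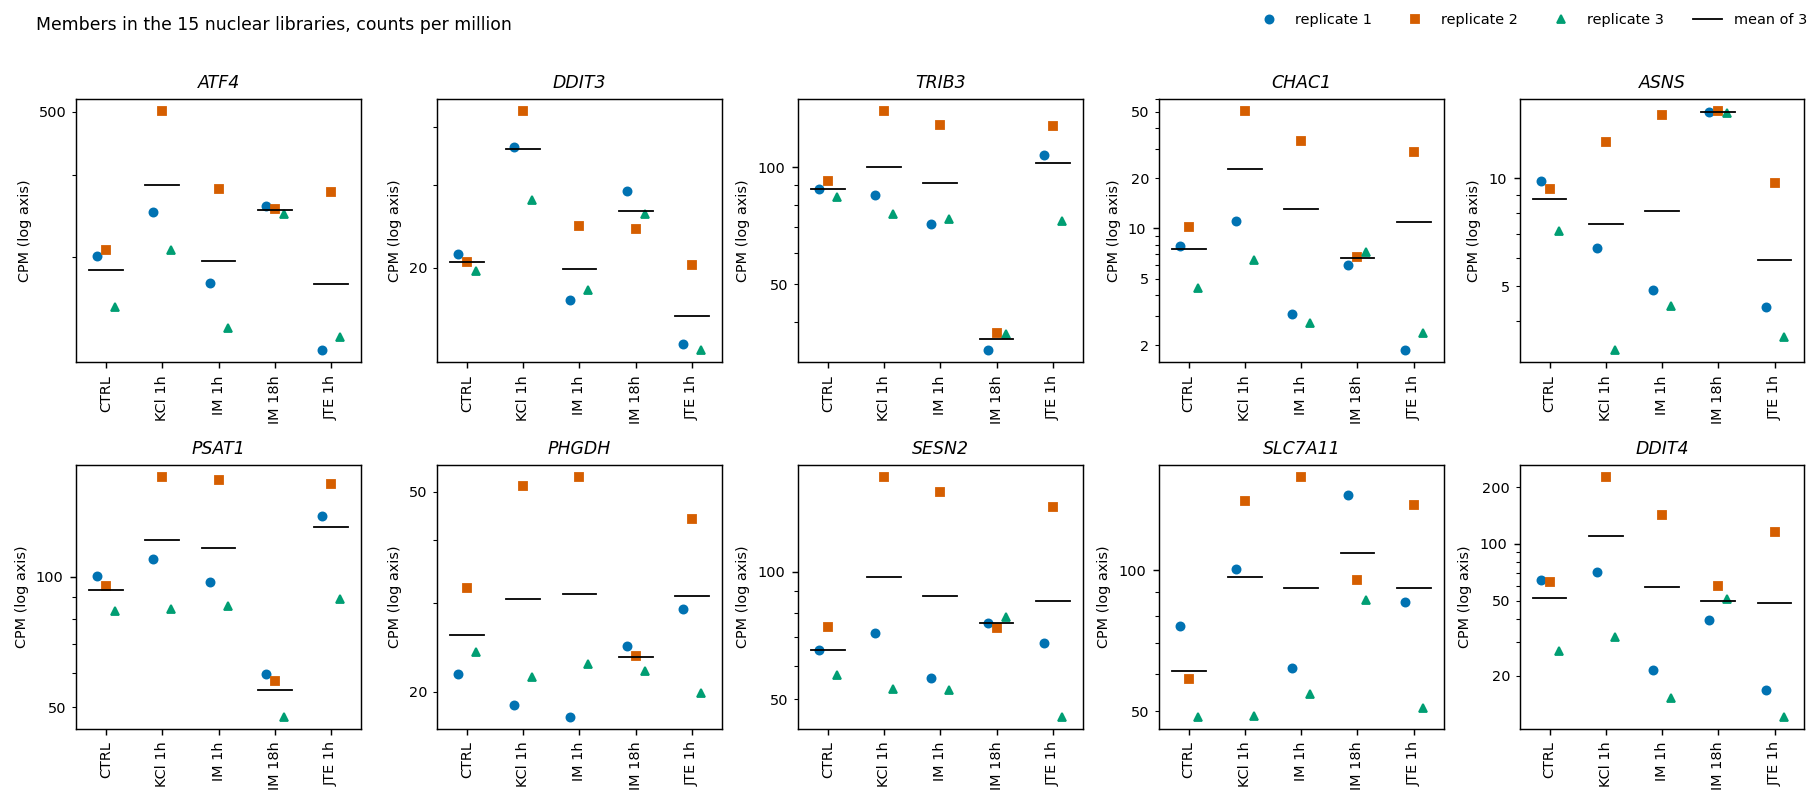
CPM of each of the 10 genes in every nuclear library, by group, on a log axis, 1 point per library numbered by replicate. CTRL and IM 18h libraries lie closer together than those of the other groups, and replicate 2 is the highest in IM 1h, JTE 1h and KCl 1h for all 10 genes.

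Levels between genes were compared per kilobase of exon. In nuclear CTRL, ATF4 was the highest at 114 CPM per kb, followed by PSAT1 at 42.6, TRIB3 at 25.6, DDIT4 at 25.0, SESN2 at 18.9 and DDIT3 at 16.2. SLC7A11 stood at 6.33, CHAC1 at 3.64, PHGDH at 2.81 and ASNS at 1.97 CPM per kb. ATF4, PSAT1 and TRIB3 were separated without overlap of libraries, as were DDIT3 from SLC7A11, SLC7A11 from CHAC1 and PHGDH from ASNS, and the other neighbours overlapped. In mRNA CTRL, ATF4 (96.4 CPM per kb) and PSAT1 (78.6) were again the highest means and ASNS (1.37) the lowest, but the libraries of all neighbours in the order overlapped. In JTE 18h, where the replicates were close, ATF4 was at 52.4, PSAT1 at 28.8, TRIB3 at 12.2, SESN2 at 11.8, DDIT3 at 6.41, CHAC1 at 0.411 and ASNS at 0.356 CPM per kb.

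The first question was which members changed with treatment in mRNA. Calls come from edgeR's quasi-likelihood test over all libraries of the fraction, with the thresholds of the study: an adjusted p under 0.05 (Benjamini-Hochberg, over all genes) and a log2 fold change above 0.6 or below -0.6. In bulk RNA, fewer responding cells and less RNA per cell cannot be told apart, and all changes are relative to the total of the library.

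After IM 18h, TRIB3 was the only member called. It stood at 28.6, 29.9 and 23.8 CPM, below every CTRL library. Its log2 fold change was -1.42 (SE 0.47, n = 3 per group, edgeR adjusted p = 0.0195). The call was lost without CTRL replicate 2 (-0.85, edgeR adjusted p = 0.164), without IM 18h replicate 1 (edgeR adjusted p = 0.0502) and without IM 18h replicate 3 (edgeR adjusted p = 0.0644). So 1 of 10 members fell and 0 rose, where 13.2% of all 18095 genes were called lower and 17.2% higher.

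The other members at IM 18h had wide errors. ATF4 was at 331, 220 and 243 CPM, inside the CTRL range, with a log2 fold change of 0.10. SLC7A11 was at 103, 96.4 and 63.5 CPM and ASNS at 7.57, 4.13 and 5.95 CPM, each between the low and the high CTRL libraries. CHAC1 was at 3.40, 1.85 and 1.19 CPM and DDIT4 at 28.1, 12.8 and 14.3 CPM, above CTRL replicates 1 and 3 and below replicate 2, with fitted log2 fold changes of -2.93 (SE 2.14) and -2.10 (SE 1.91). Without CTRL replicate 2 the fitted log2 fold changes of CHAC1, DDIT4 and ASNS were 2.30, 1.93 and 1.5, so the sign of these fits turned with that 1 library, and none of the 3 was called either way. PSAT1 (89.2, 61.0 and 54.1 CPM) and PHGDH (19.8, 25.9 and 16.9 CPM) had none of the high replicate 3 values seen in CTRL.

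After JTE 18h, DDIT3 was the only member called. It stood at 7.69, 9.37 and 7.29 CPM, below every CTRL library, with a log2 fold change of -1.51 (SE 0.47, n = 3 per group, edgeR adjusted p = 0.0441). The overlapping MARS1 was at 197, 186 and 198 CPM in JTE 18h and 200, 380 and 363 CPM in CTRL. The DDIT3 call was lost without CTRL replicate 2 (-0.91, edgeR adjusted p = 0.277), without CTRL replicate 3 (0.0527) and without any 1 of the JTE 18h libraries (0.143, 0.0740 and 0.155).

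ATF4 was at 128, 121 and 146 CPM in JTE 18h and TRIB3 at 41.7, 43.1 and 40.8 CPM, both below all CTRL libraries by a margin that was small against replicates 1 and 3. With DDIT3, 3 of 10 members were below CTRL without overlap, where 12% of all genes were. Fitted log2 fold changes were negative for all 10, from -0.79 for SESN2 to -4.31 for CHAC1, with a median of -1.52 against -0.01 over all genes. Without CTRL replicate 2 the median was -0.27, and 3 of the 10 values, for SESN2, SLC7A11 and CHAC1, were positive. CHAC1 was at 0.813, 0.730 and 0.995 CPM, above CTRL replicates 1 and 3 and below replicate 2. Of all genes, 2.09% were called lower and 3.29% higher, and of the members 1 fell and 0 rose.

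At the other times no member was called by edgeR. DESeq2 gave no adjusted p for CHAC1 in any mRNA comparison, so its counts there are of 9 members. In IM 1h 0 of 10 passed, also at an unadjusted p under 0.05 and by DESeq2, where 0.0166% of all genes were called. In JTE 1h the counts were likewise 0 of 10 in all 3 ways (0.851% of all genes), as in JTE 6h (13.2%), KCl 1h (5.45%) and KCl 3h (11.9%). In IM 6h 0 of 10 were called by edgeR and 0 by DESeq2, with 1 at an unadjusted p under 0.05 (9.94% of all genes). ATF4 in KCl 3h was at 472, 351 and 380 CPM, above CTRL replicates 1 and 3 and either side of replicate 2, with a log2 fold change of 0.76 (SE 0.50, edgeR adjusted p = 0.366). DDIT4 in KCl 3h was at 39.5, 9.11 and 18.7 CPM, all above CTRL replicates 1 and 3 and below replicate 2.

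**Figure D4:**
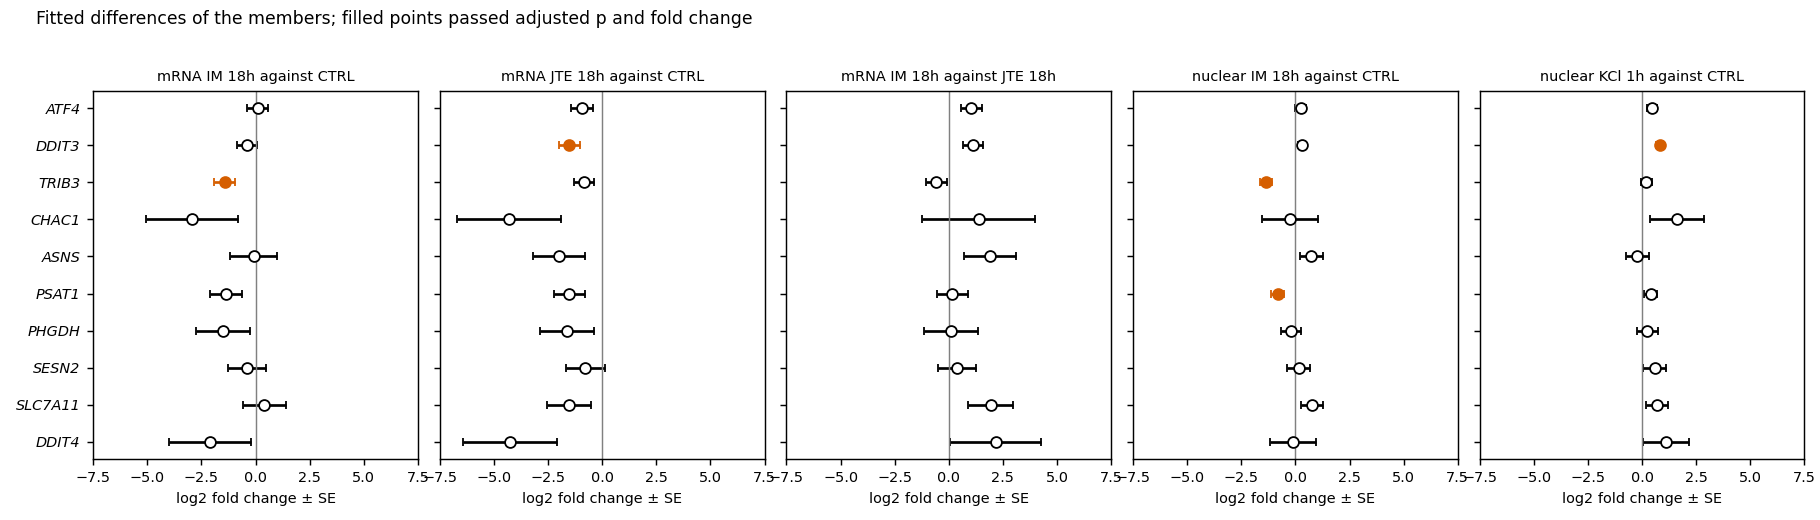
Fitted log2 fold change of each member with its SE in 5 comparisons, mRNA IM 18h and JTE 18h against CTRL, mRNA IM 18h against JTE 18h, and nuclear IM 18h and KCl 1h against CTRL, with called genes filled. Errors are widest for CHAC1 and DDIT4, and the called values are TRIB3 in mRNA IM 18h, TRIB3 and PSAT1 in nuclear IM 18h, and DDIT3 in mRNA JTE 18h and nuclear KCl 1h.

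Times of 1 treatment were also compared directly, with no CTRL library in the difference, although the spread still came from all 27 mRNA libraries. By edgeR 0 of 10 members were called in IM 6h against 1h (1 at an unadjusted p under 0.05, 0 by DESeq2, 8.2% of all genes called) and in IM 18h against 6h (0, 0 and 4.41%). The same held for JTE 6h against 1h (0, 0 and 9.23%) and KCl 3h against 1h (0, 0 and 3.29%). In JTE 18h against 6h 0 were called by edgeR, 1 had an unadjusted p under 0.05 and DESeq2 called 1, PSAT1 (13.4% of all genes). PSAT1 was at 177, 65.4 and 348 CPM in JTE 6h and at 64.2, 55.4 and 69.6 CPM in JTE 18h, and the groups overlap. With only the libraries of JTE 6h and JTE 18h in the fit, edgeR called 2 of 10 lower at 18 hours, PSAT1 and TRIB3. The share of all genes called in that smaller fit is not given here, so whether 2 of 10 exceeds it is not stated.

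Imatinib and JTE-607 were also set against each other at matched times, in groups that at 18 hours hold none of the libraries that stood apart. At 18 hours SLC7A11 was at 103, 96.4 and 63.5 CPM in IM and at 25.5, 21.4 and 24.0 CPM in JTE. ASNS was at 7.57, 4.13 and 5.95 CPM in IM and at 2.11, 1.16 and 1.49 CPM in JTE. DDIT4 was at 28.1, 12.8 and 14.3 CPM in IM and at 4.23, 3.04 and 5.42 CPM in JTE. Every IM library was above every JTE library in all 3 genes.

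ATF4, DDIT3 and CHAC1 were also higher in IM 18h without overlap, so 6 of 10 members were, where 30.1% of all genes were. TRIB3 was lower in IM 18h without overlap. The fitted log2 differences (IM minus JTE) were 2.16 for DDIT4, 1.93 for SLC7A11, 1.92 for ASNS, 1.38 for CHAC1, 1.12 for DDIT3, 1.04 for ATF4 and -0.58 for TRIB3. In the fit over all 27 mRNA libraries edgeR called 0 of 10 (1 at an unadjusted p under 0.05, 1 by DESeq2, which was DDIT3), where 30.3% of all genes were called. The adjusted p of DDIT3 was 0.0552 by edgeR.

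That fit takes its spread from all groups, including those in which 1 library stood apart. With the 6 libraries of IM 18h and JTE 18h alone, edgeR called 7 of 10, of which 6 were higher in IM, where 18.0% of all 16032 genes were called higher. SLC7A11 was 1.89 (SE 0.16), ASNS 1.88 (SE 0.27) and DDIT4 2.12 (SE 0.33) higher on the log2 scale. ATF4 was 1.01 higher (SE 0.14, edgeR adjusted p = 0.000123), DDIT3 1.09 (SE 0.22, 0.00135) and CHAC1 1.34 (SE 0.38, 0.00970), and TRIB3 was -0.61 (SE 0.10, 0.000253). At 6 hours 0 of 10 members were called by edgeR, with 0 at an unadjusted p under 0.05 and 0 by DESeq2, where 23.8% of all genes were. The doses differ (1 and 5 µM), as do the targets, so these are differences between the treatments as given.

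In nuclear RNA, TRIB3 fell after IM 18h from 87.9, 92.0 and 83.9 CPM in CTRL to 33.7, 37.3 and 37.2 CPM, with no overlap. Its log2 fold change was -1.35 (SE 0.26, n = 3 per group, edgeR adjusted p = 0.000883), and the call held in every alternative run. PSAT1 fell from 100, 95.5 and 83.3 CPM to 59.7, 57.7 and 47.6 CPM, also without overlap. The log2 fold change of PSAT1 was -0.83 (SE 0.30, edgeR adjusted p = 0.0397), a call that was lost when any 1 of the 6 libraries was left out. It was also lost with scaling by library totals (edgeR adjusted p = 0.0611). The same held for thinning to 1 depth (0.0682) and for leaving out genes over 1% of a library (0.0564). The main fit took no account of replicate number. With that number added, PSAT1 was -0.83 (edgeR adjusted p = 0.000817). With the 6 libraries alone it was -0.82 (edgeR adjusted p = 0.000318). In the main fit 2 of 10 members thus fell and 0 rose, where 15.4% of all 21929 genes were called lower and 17.2% higher.

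Among the other nuclear members at IM 18h, ASNS was at 15.4, 15.4 and 15.2 CPM against 9.83, 9.34 and 7.12 CPM in CTRL, without overlap. SLC7A11 was at 144, 95.2 and 86.2 CPM against 76.0, 58.5 and 48.7 CPM, also without overlap. DDIT3 was at 29.2, 24.2 and 26.0 CPM against 21.4, 20.5 and 19.6 CPM. None of the 3 was called in the fit over all nuclear libraries. With the 6 libraries compared alone, edgeR called ASNS (0.74, SE 0.15, adjusted p = 0.00214) and SLC7A11 (0.77, SE 0.22, adjusted p = 0.0135) higher, beside TRIB3 and PSAT1 lower, where 18.9% of 19029 genes were called higher and 16.9% lower. ATF4 was at 359, 355 and 349 CPM against 301, 308 and 252 CPM, with every IM 18h library above CTRL, and was called in neither fit. In all, 4 of 10 members were above CTRL without overlap and 2 below, where 29.3% and 24.2% of all genes were.

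DDIT3 rose in nuclear RNA after KCl 1h, from 21.4, 20.5 and 19.6 CPM to 36.3, 43.3 and 27.8 CPM. The groups do not overlap, the log2 fold change was 0.82 (SE 0.17, n = 3 per group, edgeR adjusted p = 0.000987), and the call held in every alternative run. MARS1 on the other strand was at 355, 371 and 356 CPM in CTRL and 339, 437 and 341 CPM in KCl 1h, so the groups of that gene overlap. It was 1 of 10 members called higher and 0 lower, where 15.3% of all genes were called higher and 8.5% lower. In mRNA KCl 1h, DDIT3 was at 40.2, 17.8 and 24.0 CPM, overlapping CTRL.

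In nuclear IM 1h 0 of 10 members were called by edgeR, 0 at an unadjusted p under 0.05 and 0 by DESeq2 (0.0456% of all genes called). In nuclear JTE 1h the counts were 0, 1 and 0 (8.52% of all genes). For ATF4, DDIT3, CHAC1, ASNS and DDIT4 the JTE 1h replicates other than number 2 lay below every CTRL library. ASNS was at 4.39, 9.73 and 3.63 CPM against 9.83, 9.34 and 7.12 CPM in CTRL, and CHAC1 at 1.86, 28.7 and 2.35 CPM. For the other members this did not hold. PSAT1, for example, was at 138 and 89.0 CPM in those replicates against 83.3 to 100 CPM in CTRL.

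An interaction term tested whether treatment moved the members differently in nuclear RNA and in mRNA. By edgeR 0 of 10 members were called for IM 1h, IM 18h, JTE 1h or KCl 1h, with 0 at an unadjusted p under 0.05 and 0 by DESeq2 in each. Of all genes, 0.0%, 0.0901%, 0.0605% and 0.668% were called in the 4 tests. DESeq2 gave no adjusted p for 4, 2 and 3 of the 10 in IM 1h, IM 18h and JTE 1h. For IM 18h the SEs of the differences ran from 0.43 to 2.03. The 10 differences, nuclear minus mRNA, were all positive, with a median of 0.68 against -0.02 over all genes, and without mRNA CTRL replicate 2 the median was -0.58. Fitted on their own, the log2 fold changes of TRIB3 after IM 18h were -1.42 in mRNA (-0.85 without CTRL replicate 2) and -1.35 in nuclear RNA.

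The wider pathway was followed in 6 lists of 64 genes, of which 62 were tested in each fraction. After IM 18h in mRNA 4 listed genes rose and 15 fell, with a median log2 fold change of -0.44 against 0.04 over all genes, and in nuclear RNA 6 rose and 17 fell. Of all genes, 17.2% were called higher and 13.2% lower in mRNA, and 17.2% and 15.4% in nuclear RNA. Among the regulators of eIF2α, 2 of 9 rose and 1 fell in mRNA. EIF2AK1 (HRI), the heme-sensing kinase, rose from 342 ± 23.0 to 713 ± 97.4 CPM (SD, n = 3; log2 1.03, edgeR adjusted p = 1e-07). PPP1R15A (GADD34), which recruits the phosphatase that reverses eIF2α phosphorylation, rose by 0.62, and EIF2S1, the gene of eIF2α itself, fell from 231 ± 11.1 to 122 ± 7.13 CPM. The nuclear log2 fold changes of the 3 genes were 1.06, 0.91 and -1.01, all called.

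Of 13 genes of the other unfolded protein response branches, 6 fell and 0 rose after IM 18h in each fraction, where 13.2% (mRNA) and 15.4% (nuclear) of all genes were called lower. SDF2L1, a co-chaperone of the endoplasmic reticulum, fell from 75.4 ± 9.21 to 24.4 ± 5.35 CPM in mRNA (log2 -1.67, edgeR adjusted p = 6.95e-08), and HSPA5 from 572 ± 10.6 to 262 ± 19.2 CPM (log2 -1.16, edgeR adjusted p = 8.29e-08). Their nuclear log2 fold changes were -1.79 and -1.15. The CTRL libraries lay close together in both genes.

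Amino acid transporters went both ways after IM 18h, with 1 of 9 higher and 2 lower in mRNA and 2 higher and 2 lower in nuclear RNA. SLC7A5 (LAT1), the importer of large neutral amino acids, fell by 1.22 and SLC38A1, a glutamine transporter, fell by 1.03 on the log2 scale in mRNA. SLC6A9, a glycine transporter, rose from 11.9 ± 8.89 to 37.0 ± 2.56 CPM, by 1.60. In nuclear RNA SLC1A4, which carries alanine, serine and cysteine, rose by 0.80.

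Among 12 enzymes of amino acid and one-carbon metabolism 0 rose and 2 fell in mRNA, SHMT2, the mitochondrial serine hydroxymethyltransferase (log2 -0.73), and GOT1, which makes aspartate (-0.72). Both also fell in nuclear RNA, where ALDH1L2 rose by 1.01. Of 12 other reported ATF4 targets tested, 1 rose and 3 fell in mRNA. KLHL24 rose from 19.4 ± 13.5 to 55.9 ± 9.07 CPM, while CDKN1A (p21) fell from 2.10 ± 0.249 to 0.681 ± 0.0501 CPM and ERO1A, an oxidase of the endoplasmic reticulum, from 78.7 ± 4.56 to 42.6 ± 2.87 CPM. Among 7 bZIP partners tested 0 rose and 1 fell, BATF3, which was at or near 0 counts in both groups.

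After IM 6h in mRNA 6 of 62 listed genes fell and 0 rose, where 9.94% of all genes were called in either direction. The share of all genes called lower alone is not given here. SLC7A5 fell by 1.30 and SLC1A5, a glutamine transporter, by 0.81 on the log2 scale, and SDF2L1 by 0.79. After JTE 6h SDF2L1 was the only listed gene called, with a log2 fold change of -0.75, where 13.2% of all genes were called.

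After JTE 18h 4 of 62 fell and 0 rose, where 2.09% of all genes were called lower. SLC7A5 fell by 1.14 and its heavy chain SLC3A2 by 0.77 on the log2 scale, from 162 ± 45.1 to 99.8 ± 13.6 CPM for SLC3A2. CBS and PYCR1, enzymes of cysteine and proline synthesis, fell by 0.72 and 0.66. In IM 1h 0 of 62 listed genes were called by edgeR (0 at an unadjusted p under 0.05, 0 by DESeq2), and in JTE 1h 0 of 62 (2 and 1). Of all genes, 0.0166% and 0.851% were called in these 2 comparisons. In nuclear IM 1h 0 of 62 were called (1 and 0), where 0.0456% of all genes were. In nuclear JTE 1h VLDLR alone was called, higher by 1.36, where 8.52% of all genes were called.

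After KCl 3h SLC38A2 (SNAT2), a carrier of small neutral amino acids, stood at 1883, 1848 and 1881 CPM against 230, 677 and 246 CPM in CTRL (log2 2.32, SE 0.49, edgeR adjusted p = 0.00218). PPP1R15A rose from 86.7 ± 14.5 to 198 ± 35.2 CPM, and PPP1R15B, the constitutive partner of the same phosphatase, fell from 131 ± 26.6 to 58.9 ± 4.11 CPM. CDKN1A rose by 2.50 and CEBPD by 1.02 on the log2 scale, so 4 of 62 rose and 1 fell, where 11.9% of all genes were called in either direction. After KCl 1h EIF2AK3 (PERK) was the only listed gene called, at 22.1 ± 3.20 against 14.7 ± 1.76 CPM, where 5.45% of all genes were called. In nuclear KCl 1h SLC38A2 (from 299 ± 84.6 to 757 ± 182 CPM), VLDLR (log2 2.33) and BATF3 (1.29) rose and 0 of 62 fell. Of all genes, 15.3% were called higher and 8.5% lower there.

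Genes whose pattern was most like that of a member were found by the correlation of group means of log2(CPM + 0.5) over the 9 mRNA groups, among 8808 genes. For ATF4 they were its pseudogene ATF4P3 (Pearson r = 0.991, Spearman rho = 0.967), RTN4 (0.961), MRPL45 (0.954), PHYKPL (0.944) and SECISBP2 (0.941). For CHAC1 they were TMEM167B (0.956), COIL (0.937), ZNF22 (0.936), PATZ1 (0.933) and NANP (0.927). For ASNS they were ZSCAN25 (0.981), PUM2 (0.976), PCGF3 (0.932), LRRC8D (0.921) and UBL4A (0.920). The order is by Pearson r, and the Spearman rho of the named genes ran from 0.667 for SECISBP2 to 0.983 for PHYKPL. Ranked by rho instead, other genes came first: GALNT11 for ATF4 (1.0), ZNF639 for CHAC1 (0.95) and KLF3 for ASNS (0.983). So the genes found depend on the measure. These are descriptions over 9 points that share libraries, and the CHAC1 means of 6 of the 9 groups are set largely by the 1 library that stood apart.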

How the data were processed

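K562 libraries were counted per gene by the authors, who trimmed reads with FASTP, aligned them with STAR to hg38 (GRCh38.p14 in the submitters' processing notes) and used featureCounts. The deposited values are raw whole-number counts of read pairs per gene, 1 table per fraction, without use of strand. The annotation release is not given in the sources used here. The sources also name different rRNA depletion kits for nuclear RNA.

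Groups came from the sample titles. Counts were tested with edgeR 4.0.16 (R 4.3.3; robust quasi-likelihood test, TMM scaling, filterByExpr), all libraries of a fraction in 1 fit, with Benjamini-Hochberg adjustment over all genes tested. CPM were computed here per library total. DESeq2 1.42.0, other scalings and filters, a replicate block and left-out libraries were alternatives. The steps were tested on simulated data in which all genes had the same spread and no library stood apart. That test does not show what the fit can detect in genes as variable as most members. The members and lists were chosen with earlier results of these data known, and list genes were named by rule (the 2 largest called rises and falls per list and comparison with CTRL).

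Nuclear replicate numbers paired the samples: same-numbered libraries deviated together from their group means (r from 0.235 to 0.891 over 9229 genes in every pair of groups). Counts of replicates differed beyond sampling noise (chi-square per gene 2.37 to 62.5), so none was counted as a repeat. An erythroleukaemia marker in the planned list is not reported here. Mitochondrial genes took 5.83 to 13.2% of mRNA and 4.39 to 7.82% of nuclear counts.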

Additional observations from a re-analysis of the deposited data

How the results depend on the processing

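Of 1800 recomputed values of single members, 1729 kept their side of the thresholds. Another 46 passed them only under the alternative and 19 only in the reported fit, and 6 reversed. Among the 1729, 224 values called in neither fit changed sign. Counts of members called moved as follows. With no filter on low counts they were 4 in IM 6h, 5 in IM 18h, 1 in JTE 1h, 3 in JTE 6h, 10 in JTE 18h, 1 in KCl 1h and 6 in KCl 3h against CTRL. They were 4 in IM 6h against 1h, 4 in IM 18h against 6h, 1 in JTE 6h against 1h, 8 in JTE 18h against 6h, 4 in KCl 3h against 1h, 4 and 7 between IM and JTE at 6 and 18 hours, 2, 4 and 4 in nuclear IM 1h, IM 18h and KCl 1h, and 2 for the difference between fractions in JTE 1h, against 0 to 2 with the filter. For TRIB3 in mRNA IM 18h the run without the filter gave a log2 fold change of -1.51 (edgeR adjusted p = 3.45e-23), against -1.42 (0.0195) with it. For DDIT3 in JTE 18h it gave -1.53 (1.83e-14), against -1.51 (0.0441). The adjusted p thus fell steeply at nearly the same fold change. The share of all genes called without the filter is not given here, so these counts are not read as a result about the members. Scaling by library totals alone gave 0 in JTE 18h and 1 in nuclear IM 18h, as did thinning all libraries to 1 depth, and leaving out genes over 1% of a library gave 1 in nuclear IM 18h. DESeq2 gave 1 in JTE 18h against 6h and 1 in IM 18h against JTE 18h. Fitting only the groups compared gave 2 in JTE 18h against 6h, 1 and 7 between IM and JTE at 6 and 18 hours, and 4 in nuclear IM 18h, against 0, 0, 0 and 2. Of these smaller fits, the share of all genes called is given above only for IM against JTE at 18 hours and for nuclear IM 18h.

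With the replicate number as a block, 2 members were called in IM 18h against CTRL and 1 in JTE 18h against 6h, and no other count moved by over 1.5 times. In mRNA the numbers as labelled did not pair the samples (same-number r from -0.351 to 0.871 over 8735 genes), and 7 of 24 treated libraries correlated best with the CTRL library of their own number. Only the labelled numbers were used as a block. The paper numbers mRNA CTRL replicates 1 and 2 in the opposite order, and no block with that order was run. The block therefore cannot show what pairing the mRNA libraries by experiment would give.

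Leaving out 1 library at a time, the number called ranged from 0 to 1 in IM 18h and JTE 18h against CTRL, JTE 18h against 6h, IM 18h against JTE 18h and nuclear JTE 1h, fell from 2 to 1 each time in nuclear IM 18h, was 1 each time in nuclear KCl 1h, and was 0 to 0 elsewhere.

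An alternative chosen after seeing the data left out together the libraries in which the members stand apart (mRNA CTRL replicate 2, replicate 1 of IM 1h, IM 6h, JTE 1h, JTE 6h and KCl 1h, and nuclear replicate 2 of IM 1h, JTE 1h and KCl 1h). They were picked on the members' own values, so its calls only describe the remaining libraries. It gave 1 in IM 6h, 6 in IM 18h, 2 in KCl 3h, 2 in KCl 3h against 1h, 1 and 6 between IM and JTE at 6 and 18 hours, 3 in nuclear JTE 1h and 2 in nuclear KCl 1h. Log2 fold changes against CTRL reversed for SLC7A11 in IM 6h (1.14), ASNS (1.5), DDIT4 (1.93) and CHAC1 (2.30) in IM 18h, DDIT4 in KCl 3h (2.29) and CHAC1 in nuclear JTE 1h (-1.85). Apart from what is left out by construction, the cause was not tested. Low CHAC1 levels, down to 0.156 CPM in 1 JTE 1h mRNA library, carry counting error that limits small differences.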
